A study of Mus musculus with 4 samples.

Results

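Liver RNA of male and female mice fed a high cholesterol and saturated fat diet (HCFD) was compared on 4 Affymetrix arrays, 2 from males and 2 from females, with the genotype as a block. The comparison was made per probe set on the log2 scale, for probe sets that carry a single gene symbol of an autosomal gene, and 20939 of the 35556 probe sets in the table met this rule. They stand for 19166 genes. Both sexes came in Wt and in IkbkbΔhep form, all C57BL/6J, and HCFD lasted 20 weeks after a start at an age of 2.5 months. Wt mice carried the floxed Ikbkb allele without Cre. IkbkbΔhep mice lacked IKKβ, a kinase upstream of NF-κB, in hepatocytes only, and the promoter driving their Cre was not named in the sources used here. Each group had 1 array. Its RNA was pooled from several mice, so the spread between single mice was not measured and all mice were on HCFD.

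The liver is one of the most sex-dimorphic organs of the mouse. Growth hormone reaches it in pulses in males and almost continuously in females, and the pattern is read through the JAK2 and STAT5b pathway and through repressors such as BCL6 in males and CUX2 in females. The genes so controlled include cytochrome P450 enzymes, sulfotransferases, organic anion transporters, urinary proteins and enzymes of fatty acid metabolism, and sex steroids act both directly on hepatocytes and through growth hormone secretion.

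The arrays matched their labelled sexes. Xist, expressed from the inactive X chromosome, was at 4.22 and 4.31 in males and at 10.56 and 10.53 in females on the log2 scale, and the Y-linked Eif2s3y was at 8.70 and 8.79 against 3.67 and 3.77. Ikbkb was at 8.40 in male Wt, 7.93 in male IkbkbΔhep, 8.64 in female Wt and 8.08 in female IkbkbΔhep, lower in IkbkbΔhep in both sexes. The 9 hepatocyte markers measured, Alb and Hnf4a among them, had a median male minus female difference of -0.09, and none was 1.5-fold apart in both genotypes. A noise level of 5.83 was taken from 1212 probe sets of olfactory and vomeronasal receptors, genes not expected in liver, as the level below which 95% of their mean signals lay.

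A probe set was counted as dimorphic where it was at least 1.5-fold higher in one sex in Wt and again in IkbkbΔhep. This held for 100 probe sets of 98 genes with male predominance, 0.478% of all, and for 99 probe sets of 97 genes with female predominance, 0.473% of all. These shares are the background for the list counts below, and the lists were chosen with earlier results of these data known. None of the receptor probe sets met the rule in either direction. Just inside the rule lay Lgals1 (0.59 in Wt and 0.98 in IkbkbΔhep) and Lrit1 (-0.59 and -0.64), and just outside it Tmem43 (0.58 and 0.72) and Ttc39b (-0.62 and -0.58), all on the log2 scale. The signals of the sexes did not overlap for all 100 male-predominant and 98 of the 99 female-predominant probe sets, which follows largely from the rule itself. Of all autosomal probe sets, 20.8% and 26.5% were without overlap in these directions. For 24 male-predominant and 16 female-predominant probe sets the lower sex was below the noise level on both its arrays, and folds of such genes are given as lower bounds against that level. With these bounds the difference was at least 2-fold in both genotypes for 31 male- and 36 female-predominant probe sets and at least 4-fold for 8 and 14.

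The plot of sex differences by genotype shows how far the genotypes ran together. Of 48 probe sets at least 2-fold higher in males in Wt, 48 were higher in males in IkbkbΔhep too, and 43 (89.6%) reached 1.5-fold there, with a median difference of 1.65. Of 56 at least 2-fold higher in Wt females, 55 kept the direction and 48 (85.7%) reached 1.5-fold. Starting from IkbkbΔhep, 57 of 72 (79.2%) male-predominant and 56 of 68 (82.4%) female-predominant probe sets reached 1.5-fold in Wt. Across all autosomal probe sets the sex differences of the 2 genotypes had a Pearson correlation of 0.60, and across the receptor probe sets 0.07, as a description only, since probe sets are no replicates and share the 4 arrays. Taken alone, Wt had 197 male-predominant (0.941%) and 228 female-predominant probe sets (1.09%) at 1.5-fold, and IkbkbΔhep had 240 (1.15%) and 259 (1.24%). Of these, 130 probe sets (0.621%) were 1.5-fold apart in Wt and either under 1.2-fold or opposite in IkbkbΔhep, 162 (0.774%) were so with the genotypes exchanged, and 3 (0.0143%) were 1.5-fold apart in opposite directions.

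**Figure D1:**
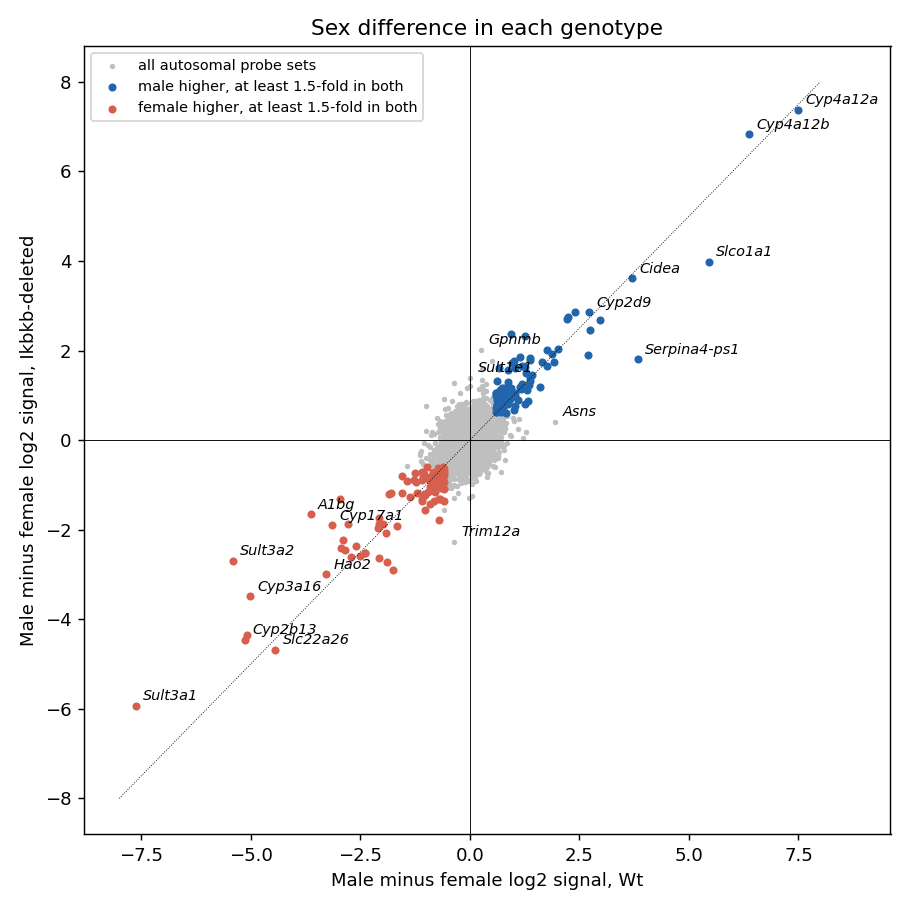
Male minus female log2 signal in Wt (x axis) against the same in IkbkbΔhep (y axis) for 20939 autosomal probe sets, with the dotted line where both are equal. The 100 male-predominant probe sets (blue) and the 99 female-predominant ones (red) range from Cyp4a12a at 7.50 and 7.38 to Sult3a1 at -7.62 and -5.93, and 4 and 8 of them lie more than 2-fold apart in the genotypes, as does Gpnmb at 0.25 and 2.02.

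The formal test of sex was weak by design. With sex and genotype as additive terms, limma had 1 residual degree of freedom, and 4 autosomal probe sets passed a Benjamini-Hochberg adjusted p of 0.05 over all probe sets. The 3 higher in males (0.0143% of those tested) were Cyp4a12a (adjusted p = 0.0287, limma), Cyp4a12b (0.0409) and Cidea (0.0437), and the 1 higher in females (0.00478%) was Slc22a26 (0.0437). At an unadjusted limma p under 0.05, 679 (3.24%) were higher in males and 1016 (4.85%) in females. An exact permutation of the sex labels within genotype cannot go below a two-sided p of 0.5, since only 4 assignments exist. The remaining differences therefore rest on their size and on their repetition in the other genotype. Errors below are the limma standard error (SE). It is built from the difference between the genotypes in the sex difference, drawn towards a value common to all probe sets. The 2 arrays of a sex are 1 Wt and 1 IkbkbΔhep pool, so the SE is no spread over replicate arrays.

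Cytochrome P450 enzymes, which oxidise steroids, fatty acids and drugs, were among the most dimorphic genes. Of 67 probe sets of families 1 to 4, 5 were male predominant and 10 female predominant, or 22.4%, against 0.478% and 0.473% of all. The list's median difference was nevertheless -0.07, close to the -0.01 of all autosomal probe sets. Cyp4a12a, a hydroxylase of fatty acids and arachidonic acid typical of the male mouse, was at 12.30 in male Wt and 12.57 in male IkbkbΔhep against 4.80 and 5.19 in females. The female signals were below the noise level, and the mean difference of 7.44 ± 0.09 (SE, 1 Wt and 1 IkbkbΔhep array per sex) corresponds to at least 97.5-fold. Its neighbour and near copy Cyp4a12b was at 11.74 in male Wt against 5.36 in female Wt, and the measured difference was 6.38 in Wt and 6.83 in IkbkbΔhep (6.60 ± 0.15 on average). Its female signals were also below the noise level, which leaves at least 65.9-fold. The signals of such close relatives may share probes, so the 2 values are not separate evidence.

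The other male-predominant members were smaller in size. Cyp2d9, a testosterone hydroxylase, was at 11.50 and 11.58 in males against 8.78 and 8.73 in females, 6.91-fold on average and 2.72 and 2.85 on the log2 scale in Wt and IkbkbΔhep. Cyp2u1, another fatty acid hydroxylase, differed by 1.92 and 1.75, and Cyp2f2, an enzyme that activates naphthalene, by 0.72 and 0.91.

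Female-predominant P450s came from the Cyp2a, Cyp2b, Cyp2c, Cyp3a and Cyp4a subfamilies. Cyp2b13, a steroid- and drug-metabolising enzyme, was at 11.67 and 11.63 in females against 6.54 in male Wt and 7.17 in male IkbkbΔhep, a mean difference of -4.79 ± 0.20, or 27.7-fold. Cyp2b9 of the same cluster was at 12.42 and 12.46 in females against 9.64 and 10.58 in males. For both, females were close to each other and the male IkbkbΔhep array was above the male Wt array, so the sex difference was smaller in IkbkbΔhep. Cyp3a16, a steroid hydroxylase, was at 8.68 in female Wt and 7.37 in female IkbkbΔhep, with males at 3.66 and 3.88, below the noise level, which gives at least 7.24-fold in Wt. Cyp2a22 differed by -2.84 and -2.45. The Cyp2c members Cyp2c68 (-1.99 and -1.87), Cyp2c37 (-1.28 and -0.90) and Cyp2c38 (-1.09 and -0.89) and the fatty acid hydroxylase Cyp4a31 (-1.05 and -1.20) were also female predominant, as were Cyp4a14 and Cyp4a10, described with the lipid genes.

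Several well-known hepatic P450s did not differ by this rule. Cyp2e1 was at 13.32 on both male arrays and at 13.35 and 13.34 in females, Cyp2c29 differed by -0.03 in either genotype and Cyp3a11 by 0.02 and 0.21. Cyp2c39 differed by -1.07 in Wt and -0.54 in IkbkbΔhep, so that only Wt reached 1.5-fold. Outside families 1 to 4, Cyp17a1, which makes androgen precursors in steroidogenic tissue, was at 10.51 in female Wt and 9.89 in female IkbkbΔhep against 7.37 and 7.99 in males. Both sexes thus lay closer to each other in IkbkbΔhep (-1.90) than in Wt (-3.14), and neither overlapped the other.

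**Figure D2:**
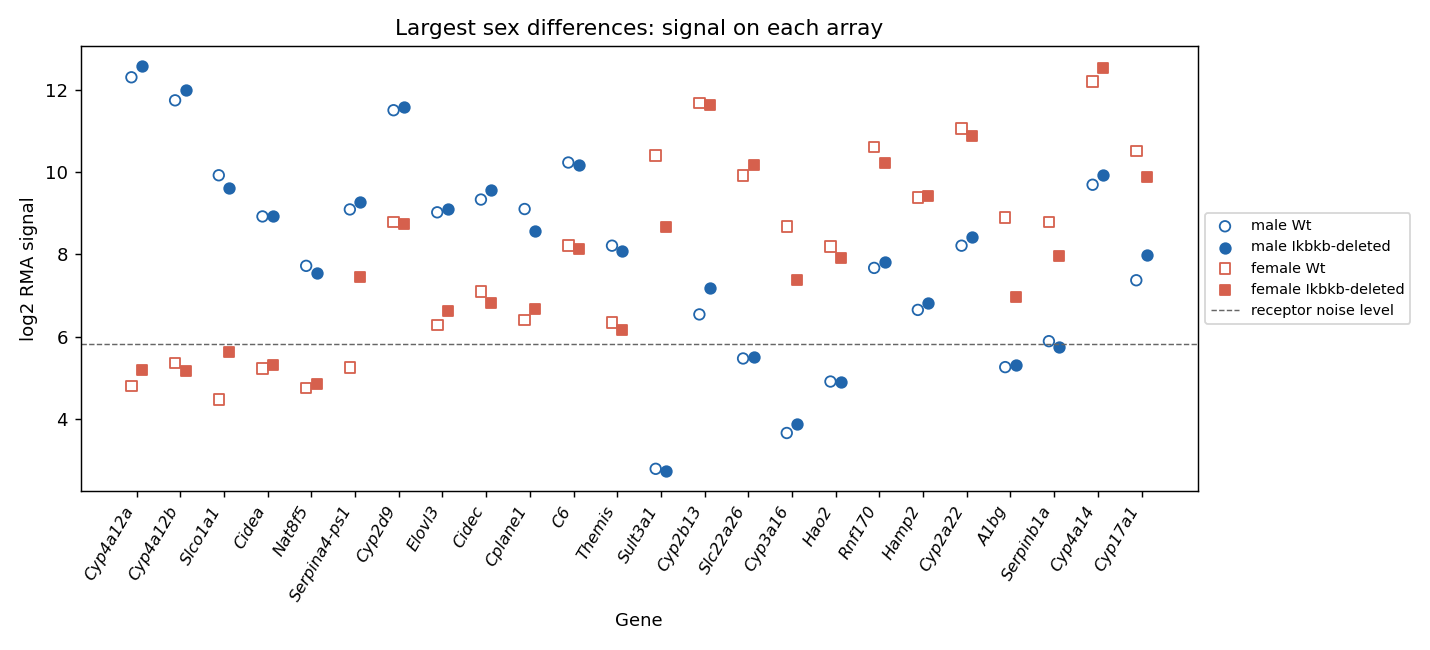
Signal (y axis, log2 RMA) on each of the 4 arrays for the 12 genes with the largest male-predominant and the 12 with the largest female-predominant differences (x axis), single values with no error bar, with the receptor noise level of 5.83 dashed. The sexes do not overlap for any of the 24, and the females are below the noise level on both arrays for Cyp4a12a, Cyp4a12b, Slco1a1, Cidea and Nat8f5.

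Upstream sequences are shown for adjacent genes that share or oppose a sex difference and for genes among the largest differences. All are the 250 bases before the annotated start from RefSeq on GRCm38.p6, given 5′ to 3′ along the gene. RefSeq promoters were held for 149 of the 195 dimorphic genes. The Cyp2b13 and Cyp2b9 sequences, of adjacent genes that were both female predominant, were identical at 248 of 250 positions (99.2%).
Cyp2b13, chr7:26061245-26061494, plus strand: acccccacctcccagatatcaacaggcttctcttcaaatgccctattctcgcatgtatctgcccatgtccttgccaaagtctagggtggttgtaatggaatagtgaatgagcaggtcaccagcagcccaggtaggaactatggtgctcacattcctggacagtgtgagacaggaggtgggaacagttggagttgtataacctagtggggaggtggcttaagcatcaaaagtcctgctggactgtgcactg
Cyp2b9, chr7:26173159-26173408, plus strand: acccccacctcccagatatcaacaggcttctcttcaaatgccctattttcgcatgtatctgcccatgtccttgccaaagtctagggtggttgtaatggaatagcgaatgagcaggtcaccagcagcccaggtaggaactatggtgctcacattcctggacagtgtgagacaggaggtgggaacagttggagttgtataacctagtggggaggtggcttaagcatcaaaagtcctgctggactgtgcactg

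Motif searches covered both strands of the 250 bases before each start in the RefSeq promoters. TTCNNNGAA, the core recognised by STAT5, was in 6.56% of 18441 promoters, in 6 of 93 (6.45%) promoters of male-predominant genes and in 8 of 109 (7.34%) of female-predominant genes. ATCAAT, a core of HNF6 and CUX2 sites, was in 5.11% of all, 8 of 93 (8.6%) and 11 of 109 (10.1%), and ATCGAT in 0.672%, 1 and 1. Such matches are letters in a window and not known binding sites. Among genes with the largest differences, A1bg, Sult3a1 and Slc22a26 held both TTCNNNGAA and ATCAAT, for A1bg counted over all its promoters. For others, Cyp4a12a, Cyp4a12b, Cyp4a14 and Cidea among them, no promoter was held. Sult3a1 and Slc22a26 are shown with the matches in capitals, and the ATCAAT of Sult3a1 lies on the opposite strand.
Sult3a1, chr10:33857472-33857721, plus strand: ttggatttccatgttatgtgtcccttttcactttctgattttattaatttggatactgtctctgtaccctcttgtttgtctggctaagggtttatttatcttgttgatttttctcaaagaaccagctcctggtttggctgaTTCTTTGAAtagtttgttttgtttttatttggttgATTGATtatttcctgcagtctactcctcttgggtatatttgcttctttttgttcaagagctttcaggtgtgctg
Slc22a26, chr19:7802668-7802917, minus strand: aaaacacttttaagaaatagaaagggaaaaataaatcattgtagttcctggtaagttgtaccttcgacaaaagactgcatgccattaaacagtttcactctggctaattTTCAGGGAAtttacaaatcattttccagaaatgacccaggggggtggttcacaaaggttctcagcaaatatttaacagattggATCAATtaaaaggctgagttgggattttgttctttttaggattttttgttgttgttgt

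Sulfotransferases add sulfate to steroids, bile acids and amines. Of 18 measured, 3 were female predominant (16.7%) and none male predominant, against 0.473% and 0.478% of all. Sult3a1, an amine sulfotransferase, was at 10.40 in female Wt and 8.67 in female IkbkbΔhep and at 2.79 and 2.74 in males. With males below the noise level, the measured difference of -6.77 ± 0.47 shows at least 13.1-fold, and the female IkbkbΔhep array was below the female Wt array. Its neighbour Sult3a2 was at 8.32 and 5.67 in females and 2.92 and 2.98 in males, so that it passed the noise level only in female Wt. Sult2a3, of the family that sulfates bile acids and hydroxysteroids, was at 8.36 and 8.02 in females and 3.27 and 3.66 in males. In glucuronosyltransferases and glutathione transferases the largest differences were smaller, while 10% and 17.4% of their probe sets passed. Ugt2b1 was the only male-predominant glucuronosyltransferase of 10 (0.71 and 0.63), and among 23 glutathione transferase probe sets Gstp1 (0.93 and 1.16) and both probe sets of Gstm3 were male predominant and Gstt3 (-0.75 and -0.71) female predominant. One of the Gstm3 probe sets has a number that falls among those of another chromosome, so its annotation is uncertain. Fmo2, a flavin-containing monooxygenase, was at 10.58 and 10.67 in females against 8.66 and 8.60 in males, 3.99-fold.

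Sult1e1, which sulfates and so inactivates estrogen and is the gene the study followed, had no constant sex difference. It was at 8.68 in male Wt and 8.67 in female Wt, whereas in IkbkbΔhep it was at 9.75 in males and 8.36 in females. The sex difference was therefore 0.01 in Wt and 1.39 in IkbkbΔhep, and the male IkbkbΔhep array was the highest of the 4. A direct repeat of the kind bound by the liver X receptor (AGGTCA and TGCTCA with 4 bases between them) lay within the 250 bases before its start. The same letters occurred in 5 of 18441 promoters (0.0271%) and in none of the promoters of dimorphic genes. The repeat is in capitals, on the opposite strand.
Sult1e1, chr5:87591612-87591861, minus strand: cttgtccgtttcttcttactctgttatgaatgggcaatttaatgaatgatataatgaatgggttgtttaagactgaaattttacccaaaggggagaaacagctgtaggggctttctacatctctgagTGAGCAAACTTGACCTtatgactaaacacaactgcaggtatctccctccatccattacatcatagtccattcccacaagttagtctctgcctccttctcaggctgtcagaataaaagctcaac

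Uptake transporters contained neighbours with opposite sex differences. Of 42 probe sets of organic anion and cation carriers, 1 was male and 5 were female predominant (14.3%), against 0.478% and 0.473% of all. Slco1a1, which takes up bile acids and steroid conjugates, was at 9.92 and 9.61 in males against 4.47 in female Wt and 5.63 in female IkbkbΔhep, at least 15.3-fold. Slco1a4, an adjacent gene of the same family with similar substrates, was at 10.80 and 10.41 in females against 8.73 and 8.54 in males, 3.93-fold. The sexes did not overlap for either gene. The 250 bases upstream of the 2 genes, shown because the genes lie side by side and differ in direction, aligned with 110 identical positions of 262 (42%), and neither held any of the motifs above.
Slco1a1, chr6:141946963-141947212, minus strand: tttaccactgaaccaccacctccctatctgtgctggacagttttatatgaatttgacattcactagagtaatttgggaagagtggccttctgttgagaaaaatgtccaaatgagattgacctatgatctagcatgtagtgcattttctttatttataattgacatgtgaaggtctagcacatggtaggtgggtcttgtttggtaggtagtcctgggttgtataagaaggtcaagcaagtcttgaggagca
Slco1a4, chr6:141856221-141856470, minus strand: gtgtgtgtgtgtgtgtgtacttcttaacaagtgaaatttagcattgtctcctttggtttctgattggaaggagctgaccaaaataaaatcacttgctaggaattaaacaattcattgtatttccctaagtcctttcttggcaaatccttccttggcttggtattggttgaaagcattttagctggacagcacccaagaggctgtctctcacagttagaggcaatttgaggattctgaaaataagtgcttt

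Adjacent organic anion transporter genes on chromosome 19 were female predominant. Slc22a26 was at 9.91 and 10.18 in females against 5.47 and 5.50 in males, a difference of -4.56 ± 0.11 or at least 18.6-fold. Slc22a27 differed by -2.07 and -1.75 and Slc22a29 by -1.43 and -0.91. Among efflux pumps, Abcg2, which exports sulfated steroids and drugs into bile, was male predominant at 1.38 in either genotype, and Abcc4, an exporter into blood, was female predominant (-0.89 and -1.03).

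In all, 34 pairs of dimorphic genes lay with at most 4 measured genes between them, involving 59 of the 195 genes. In 28 pairs both genes had the same direction, as in Sult3a1 and Sult3a2, Nat8f5 and Nat8, or Acot1, Acot4 and Acot3. In 6 pairs the directions were opposite: Slco1a1 with Slco1a4, Cyp4a12b with Cyp4a14, Cyp2f2 with Cyp2a22, Hsd3b5 with Hao2, Serpinb6b with Serpinb1a, and Cplane1, whose annotation is uncertain, with Ranbp3l. The number of pairs expected of neighbouring genes in general was not computed. Close relatives may share probes, so such pairs are not separate evidence. Some members, such as Trdn, Obp2a, Zfp979 and Ranbp3l, were below the noise level on all 4 arrays.

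Secreted liver proteins differed in a few members of each group. Major urinary proteins carry pheromones into urine, and Mup21 was at 9.80 and 9.78 in males against 8.05 and 7.77 in females, 3.68-fold, while Mup3 differed by 0.85 and 0.54 and Mup5 by 0.44 and 0.47. Among 29 complement genes, 3 of the membrane attack complex were male predominant and none female predominant. C6 was at 10.23 and 10.18 in males against 8.22 and 8.14 in females (2.02 ± 0.09), C8a differed by 0.95 and 0.99 and C9 by 0.88 and 0.81. C8b differed by 0.64 and 0.29 and C8g by -0.14 and -0.03, so not all subunits of the complex passed. Of 17 coagulation probe sets only F7 passed, at -0.83 and -0.84. In both genotypes 15 of the 17 were below 0, as were 34.6% of all autosomal probe sets.

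Serpins are protease inhibitors and hormone carriers, and 3 of 47 were male and 2 female predominant. Serpina4-ps1, annotated as a pseudogene, was at 9.09 and 9.26 in males against 5.25 in female Wt and 7.46 in female IkbkbΔhep, and Serpina12, known as vaspin, differed by 1.75 and 1.66. In the other direction, Serpina6, the carrier of corticosteroids in blood, differed by -0.63 and -1.01, and Serpinb1a was at 8.78 and 7.96 in females with males at 5.89 and 5.74. Hamp2, a relative of the iron hormone hepcidin, was at 9.38 and 9.41 in females against 6.65 and 6.81 in males, 6.35-fold. Hamp, hepcidin itself, did not share this pattern, with 0.14 in Wt and -0.92 in IkbkbΔhep.

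Genes of lipid droplets included male-predominant members. Cidea, a lipid droplet protein that promotes droplet fusion, was at 8.92 and 8.94 in males against 5.23 and 5.32 in females, 3.66 ± 0.09 or at least 8.6-fold. Cidec, of the same family, was at 9.33 and 9.56 in males against 7.10 and 6.81 in females, 5.61-fold. Fitm1, a droplet-forming protein, differed by 1.16 and 1.13 and Pparg, the receptor that drives fat storage, by 0.64 and 0.67. Of the 26 probe sets for lipid droplets and fatty acid uptake, these 4 were male predominant and 1 was female predominant, Vldlr (-1.08 and -0.81), which takes up triglyceride-rich lipoproteins. The coat protein Plin2 differed by 0.24 and 0.20 and the fatty acid carrier Cd36 by -0.09 and 0.28.

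Of 30 lipogenesis probe sets, 3 were male predominant. Elovl3, which elongates very long chain fatty acids, was at 9.02 and 9.09 in males against 6.28 and 6.63 in females, 6.09-fold. Mogat1, an acylglycerol synthase, differed by 0.62 and 1.33 and Thrsp, a lipogenic nuclear protein, by 0.73 and 1.16. The core enzymes of fatty acid synthesis were closer between the sexes, with Fasn at 0.50 and 0.63, Acly at -0.16 and 0.04, Scd1 at 0.08 and 0.13 and Srebf1 at -0.18 and -0.20.

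Fatty acid oxidation genes passed in the female direction. None of 28 probe sets was male predominant, 5 were female predominant and 22 were below 0 in both genotypes (34.6% of all autosomal probe sets were), with a median of -0.12. The 5 were Cyp4a14, at 12.20 and 12.52 in females against 9.69 and 9.93 in males (5.87-fold), Cyp4a10 (-0.84 and -1.02), and the acyl-CoA thioesterases Acot3 (-1.88 and -2.72), Acot4 (-1.09 and -1.35) and Acot1 (-0.86 and -1.12). Cyp4a14 and Cyp4a10 are omega-hydroxylases, and the mitochondrial enzymes that carry out beta-oxidation were within 1.5-fold, as for Cpt1a (-0.07 and 0.02), Acadm (-0.03 and -0.04) and Hadha (-0.12 and -0.07). Ppara, the receptor that induces these genes, differed by -0.08 and -0.19. Abcd2, a peroxisomal importer of very long chain fatty acids, was female predominant at -1.66 and -1.91, and Hao2, a peroxisomal hydroxy acid oxidase, was at 8.19 and 7.90 in females against 4.91 in either male, at least 4.66-fold.

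Bile acid and cholesterol genes showed a small set of differences. Cyp7b1, an oxysterol hydroxylase of the alternative bile acid pathway, was at 10.57 and 10.74 in males against 9.16 and 9.29 in females, 2.7-fold. Cyp39a1, another oxysterol hydroxylase, was female predominant at -1.54 and -1.18, as was Klb, the co-receptor for FGF15 in hepatocytes, at -0.61 and -0.85. Cyp7a1, the rate-limiting enzyme of bile acid synthesis, differed by -0.52 and -0.70, and Cyp8b1, which sets the share of cholic acid, by 0.51 and 0.86, each past 1.5-fold in IkbkbΔhep alone. None of 20 cholesterol synthesis, 13 liver X receptor target or 24 glucose metabolism probe sets passed in either direction. Abca1 differed by 0.02 and -0.04, Pck1 by 0.10 and -0.23.

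**Figure D3:**
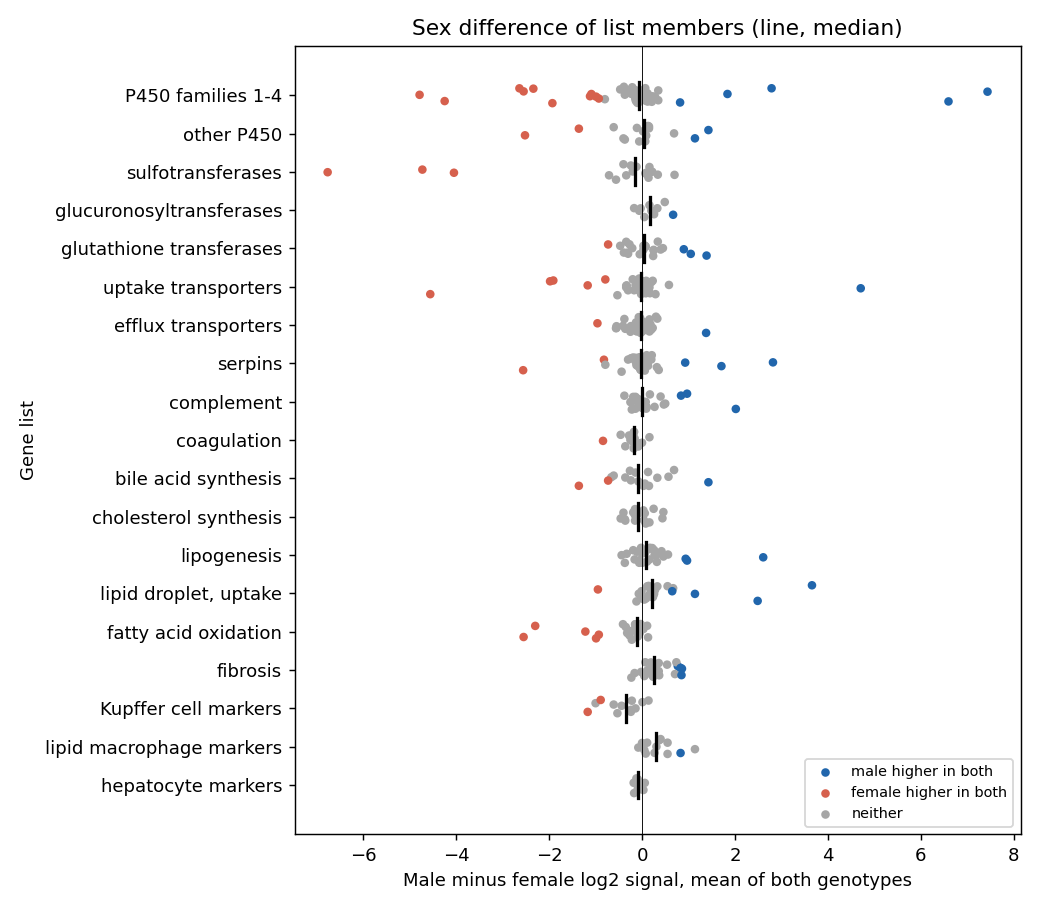
Male minus female log2 signal, averaged over both genotypes (x axis), of every probe set (point) in 19 gene lists (y axis), with the list median as a black line and points coloured where the difference was 1.5-fold in both genotypes. P450s and transporters hold points far out on both sides while their medians are near 0, and the fibrosis list has a median of 0.25.

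Growth hormone and sex steroid signalling was examined with a list of 30 probe sets, which also held receptors of other hormones such as Egfr and Lepr. Its members were chosen with earlier results of these data known. Of the 30, 2 were male and 6 female predominant (26.7%). Of all autosomal probe sets, 0.478% and 0.473% were. The growth hormone receptor and its transducers were within 1.5-fold, with Ghr at 0.10 and 0.04, Jak2 at -0.13 and -0.04 and Stat5b at -0.11 and -0.20. Hnf4a was at -0.04 in both genotypes. Both transcriptional repressors passed. Bcl6, repressed by continuous growth hormone, was at 7.73 and 8.11 in males against 6.81 and 7.15 in females, 1.92-fold. Cux2, a female-specific repressor of male genes, was at 7.48 and 7.59 in females against 6.27 and 6.40 in males, 2.3-fold. For both, the difference was alike in the genotypes, at 0.92 and 0.96 for Bcl6 and -1.21 and -1.19 for Cux2.

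Receptors of other hormones also differed. Egfr, the epidermal growth factor receptor, was at 10.63 and 10.92 in males against 9.68 and 9.85 in females, and Esr1, the estrogen receptor of hepatocytes, was at 8.64 and 8.63 in females against 7.69 and 7.48 in males. Lepr, the leptin receptor, was at 7.27 in female Wt and 8.97 in female IkbkbΔhep against 5.53 and 6.06 in males. Trim24, a co-regulator of nuclear receptors, differed by -0.76 and -0.83. The female-predominant set was completed by Igfals, the subunit that stabilises circulating IGF1 (-0.83 and -0.88), and Igfbp2 (-0.60 and -1.35), while Igf1 itself differed by -0.08 and -0.32. Socs2, a feedback inhibitor of growth hormone signalling, had 2 probe sets. One was at 7.01 and 6.86 in males against 7.59 in female Wt and 8.41 in female IkbkbΔhep, the other at 6.64 and 6.54 against 7.02 and 7.54, so that only IkbkbΔhep passed 1.5-fold. The first of them has a number among those of another chromosome, so its annotation is uncertain.

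**Figure D4:**
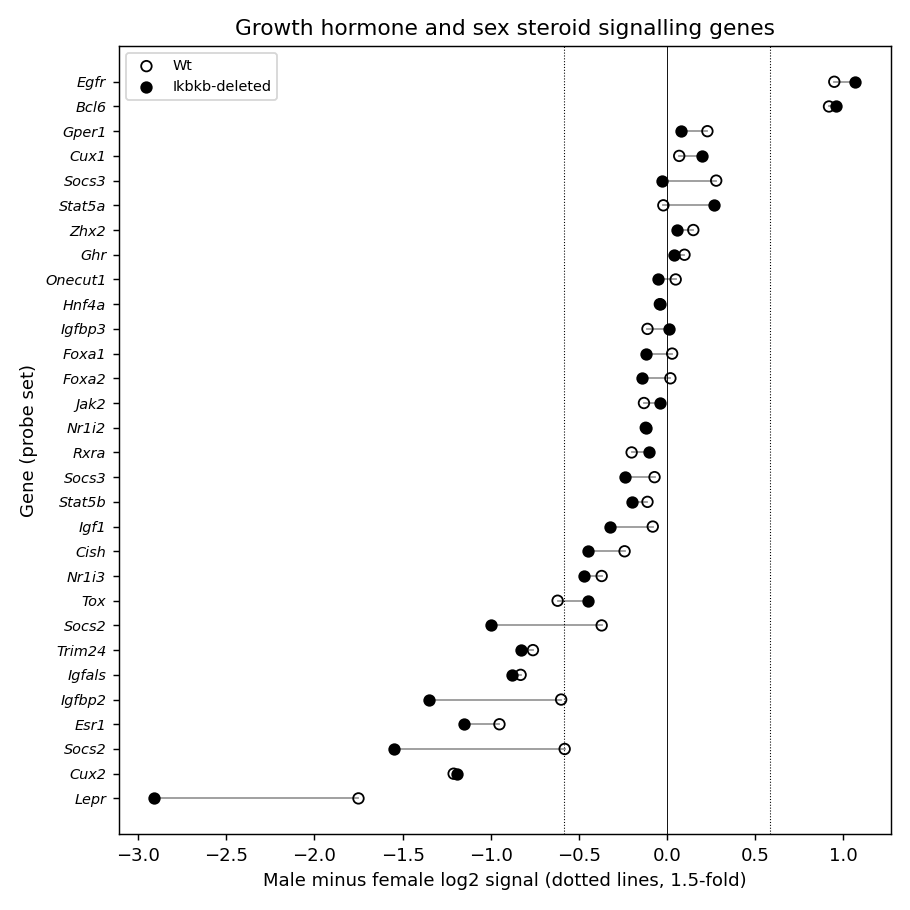
Male minus female log2 signal (x axis) in Wt (open) and IkbkbΔhep (filled) for the 30 probe sets of the growth hormone and sex steroid list (y axis), with 1.5-fold as dotted lines. The list also holds receptors of other hormones. Egfr and Bcl6 lie to the right of the lines and Cux2, Esr1, Igfals, Trim24, Igfbp2 and Lepr to the left in both genotypes, while the 2 Socs2 probe sets are farther left in IkbkbΔhep.

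Lists of genes long described as dimorphic in mouse liver were read in the same way. Their members were chosen with earlier results of these data known, so the shares are no independent check. Over all autosomal probe sets, 0.478% were male and 0.473% female predominant. Of 20 male-biased genes measured, 16 were male predominant (80%) and none female predominant, with a median of 1.25 in Wt and 1.31 in IkbkbΔhep. Of 27 female-biased genes, 18 were female predominant (66.7%) and none male predominant, with medians of -1.43 and -1.19. The exceptions included Cspg5 (0.13 and -0.15) and Moxd1 (0.31 and 0.29) for males and Fmo1 (-0.32 and -0.28), Cyp2b10 (-0.69 and 0.26) and Sult1e1 for females.

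Genes of fibrosis included male-predominant members. Of 29 fibrosis genes, 26 had a mean difference above 0, against 46.7% of all autosomal probe sets, and 4 were male predominant. Col1a1 and Col1a2, the chains of type I collagen, differed by 0.69 and 1.04 and by 0.67 and 0.86. The matrix proteases Mmp13 (0.86 and 0.83) and Mmp12 (0.59 and 1.06) passed with Mmp12 just inside the threshold, while Col3a1 (0.53 and 0.89), Acta2 (0.77 and 0.30) and Tgfb1 (0.00 and -0.05) did not pass. The 9 stellate cell markers had a median of -0.05 and a summed linear signal of 3071 and 3271 in males and of 3535 and 3288 in females, and none passed. Their part in the collagen result was not tested.

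Markers of Kupffer cells, the resident macrophages of the liver, included 2 female-predominant genes. Timd4, a receptor for dying cells, was at 8.34 and 8.38 in females against 7.52 and 7.43 in males, and Cd163, a haemoglobin scavenger, was at 6.98 and 8.04 against 6.06 and 6.62. Of the 12 markers, 9 were below 0 in both genotypes, against 34.6% of all autosomal probe sets, with a summed signal of 5290 and 5655 in males and of 7214 and 6295 in females. Clec4f differed by -0.74 and -0.47 and Marco by -1.43 and -0.58, just outside the rule. Markers of lipid-associated macrophages were at 8200 and 8885 in males against 8132 in female Wt and 6904 in female IkbkbΔhep, with 1 of 13 past the rule (Mmp12) and medians of 0.12 in Wt and 0.50 in IkbkbΔhep. In whole liver, fewer cells of a type and less RNA per cell cannot be told apart. Of 22 NF-κB target and 24 interferon-response probe sets none passed, with medians of 0.05 and 0.10.

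The sizes in the 2 genotypes were within 2-fold of each other for all but 4 male-predominant and 8 female-predominant probe sets. The size was smaller in IkbkbΔhep than in Wt for 30 of 100 and 45 of 99. Whether any of these differs between genotypes could not be tested, because the interaction of sex and genotype leaves no residual degree of freedom with 1 array per group.

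Several dimorphic genes with unequal sizes differed between the 2 female arrays. A1bg was at 8.89 in female Wt and 6.97 in female IkbkbΔhep with males at 5.26 and 5.32, and Cxcl13, a B-cell attractant, was at 8.63 and 7.09 with males at 5.67 and 5.78. These 2, with Sult3a1, Sult3a2 and Cyp3a16, were lower in the female IkbkbΔhep array than in female Wt by more than 1 on the log2 scale. Serpina4-ps1, male predominant, and Lepr, female predominant, were higher on it. Slco1a1 was below the noise level on both female arrays, so their order is not read. In all of these the direction of the sex difference was the same in both genotypes, which the rule for a dimorphic probe set requires.

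Other genes passed 1.5-fold in 1 genotype only, and those named here did so mostly in IkbkbΔhep. Over all autosomal probe sets the counts were closer. There were 162 apart in IkbkbΔhep and 130 in Wt that were under 1.2-fold or opposite in the other genotype. Gpnmb, a glycoprotein of lipid-laden macrophages, was at 8.30 and 8.04 in male and female Wt and at 8.98 and 6.96 in male and female IkbkbΔhep, so 0.25 against 2.02. The serum amyloid A genes, whose products rise in the acute phase response, followed with Saa1 at 0.27 against 1.58 and Saa2 at 0.51 against 1.76. Saa2 was at 10.39 and 10.35 in males, 9.88 in female Wt and 8.58 in female IkbkbΔhep, which was the lowest array. Usp18, an interferon-induced protease, differed by 0.01 and 1.21. Ppp1r3g, which directs a phosphatase to glycogen, was at 8.93 in female IkbkbΔhep and between 7.68 and 7.75 on the other arrays. Myc, a growth-related transcription factor, had differences of opposite sign, 0.81 in Wt and -0.44 in IkbkbΔhep.

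**Figure D5:**
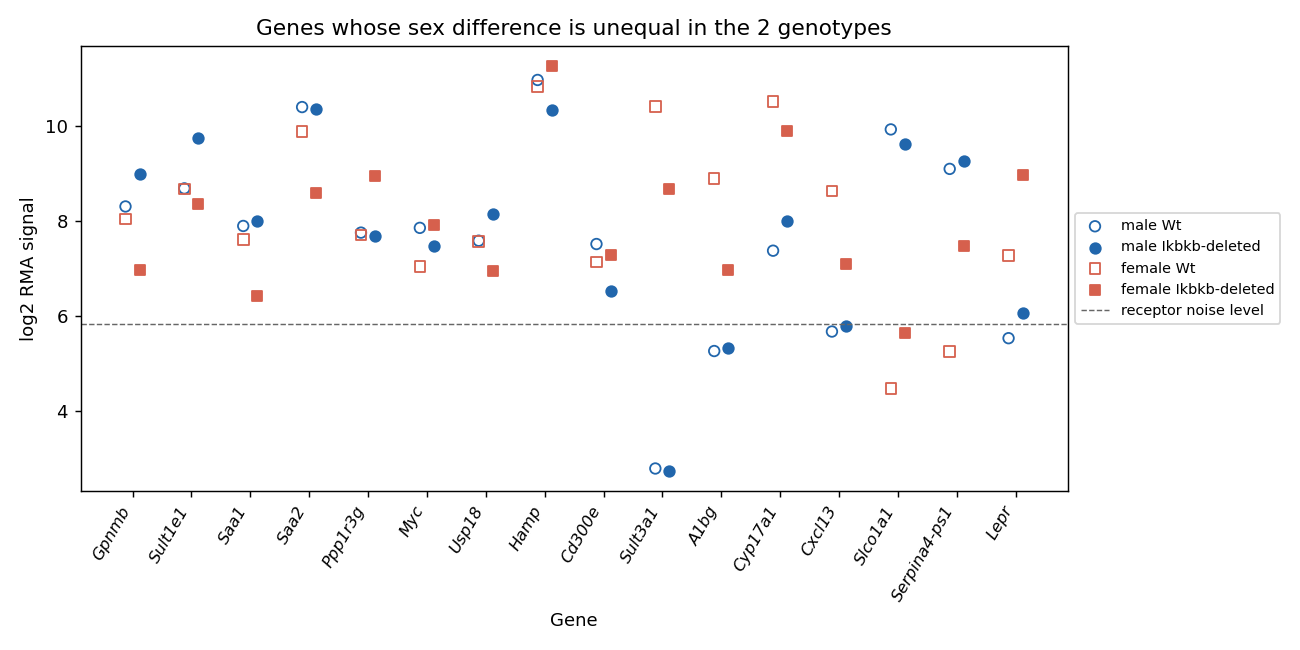
Log2 RMA signal (y axis) on each of the 4 arrays, single values with no error bar, of 16 genes (x axis) whose sex difference was unequal in Wt and IkbkbΔhep, with the receptor noise level of 5.83 dashed. Gpnmb, Sult1e1, Saa1 and Saa2 have close male and female values in Wt (open) and separate ones in IkbkbΔhep (filled), while Sult3a1 and A1bg are separate in both.

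Several further genes with large differences lay outside these groups. Nat8f5, an acetyltransferase-like gene, was at 7.72 and 7.54 in males against 4.75 and 4.84 in females, at least 3.48-fold. Hsd3b5, a male-specific steroid reductase, was at 6.67 and 7.15 against 4.45 and 4.44, at least 2.12-fold. Nt5e, the ecto-enzyme that makes adenosine, was at 9.05 and 8.95 in females against 6.95 and 6.99 in males, 4.08-fold. Rdh16f2, a retinol dehydrogenase family member, differed by -2.40 and -2.51 and Nipal1, a magnesium transporter family member, by -2.39 and -2.52. Both probe sets annotated to Rnf170 were female predominant, and 1 of them has a number between those of Cyp2b13 and Cyp2b9, so what it measures is uncertain. The same holds for Cplane1, at 9.10 and 8.57 in males against 6.41 and 6.66 in females, whose probe set number lies among those of another chromosome, as do 2.84% of all autosomal ones and 5 of the 199 dimorphic ones.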

How the data were processed

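Liver RNA of 4 groups of mice was measured on 4 arrays. The authors deposited log2 signals per probe set. RMA and Affymetrix Expression Console, without versions, are what the submitters' notes list, so background correction and normalization across arrays preceded deposit. Extraction and array type are given differently in the paper (TRIzol, another mouse array) and in the labels (RNeasy, a whole-transcript kit). The probe set numbers are those of a whole-transcript array. A table footnote of the study describes 4 pooled RNA samples, and its wording leaves unclear whether this is 4 per group. With arrays, their number limits the precision. Array medians were 6.27 to 6.29.

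Names came from the platform annotation: 21789 probe sets had a single symbol (21766 matched to the GRCm38.p6 gene table), 1621 several and 12146 none. X-linked (793), Y-linked (30) and unplaced or mitochondrial (27) ones were left out. Male minus female differences were taken within genotype. limma 3.58.1 in R 4.3.3 fitted sex and genotype over all probe sets, with Benjamini-Hochberg adjustment, and was tested on simulated data. Python 3.11.15, numpy 2.4.6, pandas 2.3.3 and matplotlib 3.10.9 did the rest. Bounds on folds use the receptor noise level of 5.83.

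Genes named were the 12 largest differences per direction above the noise level, up to 6 members per list, the growth hormone list, the 6 largest differences between genotypes, the 5 smallest limma p per direction, and genes of the study's table. Others named were chosen after their values were seen, among them Cyp2e1, Cyp2c29, Cyp3a11, Nt5e, Usp18 and the genes of opposite neighbours. The members and lists were chosen with earlier results of these data known, and 51 lists were run. Alternatives tried were 3 normalizations, 2 filters on dim signals, 2 other folds, other limma settings, one value per gene, no pairing by genotype and leaving out each array.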

Additional observations from a re-analysis of the deposited data

Results flagged for a closer look

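In all, 3 probe sets were at least 1.5-fold apart between the sexes in opposite directions in Wt and IkbkbΔhep, and the difference between genotypes was not tested, as each group has 1 array. For Khdc1a the male minus female difference was 0.72 in Wt and -0.72 in IkbkbΔhep, a change of -1.44. For Slc10a4, a transporter-like protein, it was -0.59 and 0.91, a change of 1.51, and for Vmn1r178, a vomeronasal receptor, males were at 2.99 and females at 3.99 in Wt while the difference was 0.75 in IkbkbΔhep, a change of 1.75. All 4 signals of each lay below the receptor noise level of 5.83.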

How the results depend on the processing

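The counts of dimorphic probe sets depended most on the fold. At 2-fold 37 were male and 38 female predominant, and at 1.2-fold 488 and 748. With any one array left out 1 genotype has no partner, so an unpaired rule was used. It asked that the lowest signal of a sex be 1.5-fold above the highest of the other. This rule gave 84 and 89 with all arrays, and 110 to 158 and 130 to 152 with an array left out. The highest male-predominant count came without the female Wt array (158) and the highest female-predominant count without the male Wt array (152). Under quantile normalization, median centring and cyclic loess they were 112 and 87, 103 and 94, and 108 and 90. The 3 probe sets in opposite directions became 0 above the noise level, 0 above the median signal, 0 at 2-fold and 206 at 1.2-fold. Those apart in Wt only were 55, 42, 6 and 2771, and those in IkbkbΔhep only 94, 76, 9 and 2691, under the same alternatives. The limma counts of 3 and 1 became 15 and 15 with a trended, robust prior and 15 and 13 without the genotype term. Refitted on fewer probe sets, they were 21 and 22 above the noise level and 34 and 30 above the median signal. Refitted on autosomal probe sets alone, they were 62 and 62 (0.296% each). Such a refit changes both the number of tests and the common value towards which the variance is drawn. With an array left out 1 sex had 1 array, so those limma counts are not read. The cause of these shifts was not tested. Genotype is the block in the differences and in limma, and without pairing by genotype 84 and 89 probe sets were dimorphic. Of 2754 recomputed values of 306 named probe sets, 73 changed sign, 3 of them by normalization, and 0 of those that had passed were reversed. That 0 is fixed by the rule where 1 genotype is taken alone, and nearly so where an array is left out. It is therefore no sign of stability under those settings. Of 600 recomputed medians of 50 lists, 61 changed sign, in 22 lists, 12 of them by normalization, so the sign of a list median near 0 is not read. The normalizations moved the median sex difference by at most 0.03. Without the probe sets numbered among another chromosome's, an alternative chosen after seeing the data, the counts were 96 and 98. Signals below 5.83 limit what can be said of dim genes, pooling hides the spread between mice, and without chow-fed arrays the diet's part cannot be told apart.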

Other observations

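Other gene groups held few dimorphic members, in lists too short to expect many at 0.478% and 0.473% of all probe sets. None of 19 unfolded protein response, 18 antioxidant, 24 cell cycle or 11 antigen presentation probe sets was 1.5-fold apart in both genotypes, and the 185 ribosomal protein probe sets had a median of -0.06. Of 17 clock probe sets 1 passed, Per3, a period gene of the circadian clock, at -0.64 and -0.69, while Arntl differed by 0.10 and -0.08 and Clock by 0.11 in either genotype. Of 29 amino acid and urea cycle probe sets 1 passed, Agxt, which detoxifies glyoxylate, at -0.92 and -1.05, and 19 were below 0 in both genotypes, against 34.6% of all autosomal probe sets. Asns, asparagine synthetase and 1 of the unfolded protein response list, was at 7.48 in male Wt and between 5.18 and 5.58 on the other arrays, and Trim12a was at 4.97 in male IkbkbΔhep and between 6.85 and 7.24 on the others. These are single arrays with no repeat. Probe sets with several symbols (1621) or none (12146), which were not named, had 92 male-predominant and 274 female-predominant members by the same rule. They were not limited to autosomes, so X- and Y-linked ones may be among them. These counts are therefore not comparable with those of the autosomal probe sets.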
